A study of Homo sapiens with 32 samples.

Results

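The inhibitor of DNA binding genes ID1, ID2, ID3 and ID4 were followed together with the receptor-regulated SMAD genes of the BMP branch, SMAD1, SMAD5 and SMAD9, and the ligand genes BMP2 and BMP7. These 9 genes were chosen by symbol, through the GENCODE name of each Ensembl identifier, out of 17788 genes in the count table, and all 9 were found. Their abundance is given as CPM, counts per 1000000 counts of a library. Of the 9 genes, 7 passed the filter on low counts, which 14865 genes of the table passed, while ID4 and BMP7 did not.

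ID proteins are helix-loop-helix proteins without a DNA-binding basic region. They bind the E proteins TCF3, TCF4 and TCF12 and keep them from binding E-boxes on DNA, and they are known for holding cells in a proliferating, less differentiated state. ID genes are classical direct targets of bone morphogenetic proteins (BMPs): BMP receptors phosphorylate SMAD1, SMAD5 and SMAD9, which join SMAD4 and enter the nucleus, whereas TGFβ receptors mainly use SMAD2 and SMAD3. In epithelial cells TGFβ is known to act on ID genes in both directions, depending on cell type and time.

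The 32 RNA-seq libraries came from clones of the mammary epithelial line MCF10A, which is of human origin and does not form tumours. JUNB encodes a partner within AP-1 transcription factors. Clones 27 and 2 carried wild-type JUNB (WT), and clones 1 and 65 had a JUNB deletion made by CRISPR/Cas9 (mut), labelled as a knock-out although the study describes a smaller JUNB polypeptide that remains at low level. Each clone was grown from a single cell, so that a genotype stands for 2 clones. Cells received 5 ng/ml TGFβ1 for 6, 24 or 72 h or solvent (BSA in PBS), in a medium shared by all groups that contained horse serum, EGF, hydrocortisone, cholera toxin and insulin. Every one of the 8 groups held 4 libraries, 2 replications of each of 2 clones, and libraries of 1 clone and 1 replication number are called a series and written as in 27-2. The labels give the solvent libraries the time 0 h, while the study describes solvent given over 72 h and a common harvest, so that solvent is a parallel control and not a state before treatment. There was 1 solvent group per genotype for all 3 times, and the comparisons of a genotype with its solvent share those 4 libraries.

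Library totals ranged from 39702412 to 54651906 counts, and 3 counts, taken as the floor, corresponded to 0.0549 to 0.0756 CPM. JUNB abundance in the WT and mut solvent libraries averaged 97.6 and 112 CPM, so that its counts do not check the genotype labels. The mut clones were unlike in this, with solvent means of 73.3 CPM in clone 1 and 150 CPM in clone 65. All 8 mammary epithelial markers were in the table, with sums of 5798 to 14841 CPM per library. Of 11 markers of other cell types 8 were in the table; their sum was 16.3 to 80.6 CPM and highest in WT libraries at 24 h. The leukocyte markers PTPRC and CD3E were at 0 in all 4 libraries of 3 and 4 groups, respectively, while PECAM1, CDH5 and PGR were not in the table. CD14, a monocyte marker also listed for leukocytes, was not at 0 but at 14.8 ± 4.11 CPM in WT solvent libraries. Deviations from the group means went together most in series 27-2, with a mean correlation of 0.747 against 0.171 (series 1-2) to 0.602 in the other 7 series. Results were therefore computed with and without series 27-2 and 1-2. In such bulk libraries fewer cells of a type and less RNA per cell cannot be told apart.

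ID1, BMP2 and BMP7 lie on chromosome 20 of GRCh38, and each of the other genes lies on a chromosome of its own. ID1 (ENSG00000125968) spans chr20:31605283-31606515 on the plus strand, ID2 (ENSG00000115738) chr2:8678845-8684461 on the plus strand, ID3 (ENSG00000117318) chr1:23557926-23559501 on the minus strand and ID4 (ENSG00000172201) chr6:19837370-19842197 on the plus strand. SMAD1 (ENSG00000170365) spans chr4:145481194-145559176 and SMAD5 (ENSG00000113658) chr5:136132845-136188747, both on the plus strand, and SMAD9 (ENSG00000120693) chr13:36844831-36920887 on the minus strand. BMP2 (ENSG00000125845) lies on the plus strand at chr20:6767686-6780246 and BMP7 (ENSG00000101144) on the minus strand at chr20:57168753-57266641. SMAD5 overlaps SMAD5-AS1 on the opposite strand, and because the library kit keeps no strand, reads of these genes cannot be told apart. The other 8 genes overlap no gene of the table.

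The 250 bases upstream of the start site are shown for ID1 and ID3, whose differences between mut and WT cells had opposite signs, for ID2, their sparsely transcribed relative, and for SMAD9, whose response to TGFβ1 differed between the genotypes. They are RefSeq windows of the build GRCh38.p14, written 5′ to 3′ on the strand of the gene, and 7 of the 9 genes matched a window, while BMP2 and BMP7 did not. Capitals mark matches on either strand to GGGCGG (the GC box), CCAAT (the CCAAT box), TATAAA (the TATA element) or CANNTG (the E-box). The windows lie at chr20:31605039-31605288 (ID1), chr1:23559502-23559751 (ID3), chr2:8681806-8682055 (ID2) and chr13:36920239-36920488 (SMAD9). The start sites are those of RefSeq, and the windows of ID2 and SMAD9 lie inside the gene spans given above.
ID1: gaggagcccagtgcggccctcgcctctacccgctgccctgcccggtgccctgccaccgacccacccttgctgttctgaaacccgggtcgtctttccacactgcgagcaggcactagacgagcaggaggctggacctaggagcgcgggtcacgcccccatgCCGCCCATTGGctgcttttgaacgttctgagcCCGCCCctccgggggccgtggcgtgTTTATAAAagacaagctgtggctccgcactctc
ID3: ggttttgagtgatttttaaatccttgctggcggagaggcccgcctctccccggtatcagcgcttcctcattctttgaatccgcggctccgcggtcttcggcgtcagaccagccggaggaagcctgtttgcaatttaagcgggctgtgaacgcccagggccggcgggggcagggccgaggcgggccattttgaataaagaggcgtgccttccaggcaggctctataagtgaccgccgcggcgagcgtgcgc
ID2: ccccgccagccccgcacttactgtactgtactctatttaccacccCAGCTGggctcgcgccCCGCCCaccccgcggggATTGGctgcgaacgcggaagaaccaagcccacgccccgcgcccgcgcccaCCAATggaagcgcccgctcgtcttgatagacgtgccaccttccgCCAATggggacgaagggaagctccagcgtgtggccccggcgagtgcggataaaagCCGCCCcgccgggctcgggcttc
SMAD9: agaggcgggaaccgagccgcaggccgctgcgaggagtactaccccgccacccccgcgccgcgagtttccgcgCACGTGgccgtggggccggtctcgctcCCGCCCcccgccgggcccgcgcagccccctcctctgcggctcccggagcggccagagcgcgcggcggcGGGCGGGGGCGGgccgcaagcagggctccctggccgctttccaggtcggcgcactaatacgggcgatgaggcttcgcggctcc

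The ID1 window held 2 GC boxes, 1 CCAAT box directly beside a GC box (both read on the opposite strand), and TATAAA close to the start site, where the same letters also read as TATAAA on the opposite strand. The ID3 window held none of these 4 motifs. ID2 had 2 GC boxes, 3 CCAAT boxes and 1 E-box, and SMAD9 3 GC boxes and 1 E-box. Over all 35116 windows of this length, 42.6% held GGGCGG, 32% CCAAT, 10.7% TATAAA and 61.8% CANNTG. Neither ID1 nor ID3 held GGCGCC (a GC-rich SMAD element, in 16.4% of windows), GTCTAGAC (a palindromic SMAD box, 0.182%), TGANTCA (AP-1, 6.57%) or TGACGTCA (CRE/ATF, 1.65%). Of the 5 windows of SMAD1, 1 held TGANTCA and 2 held 2 copies of GGCGCC each. The GC content was 66.0% in the ID1 window and 62.0% in the ID3 window.

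Levels between genes were compared per kb of exon (CPM divided by the length of all annotated exons). In WT solvent libraries the level was 71.5 ± 11 CPM per kb for ID1 (SD, n = 4 here and for the other genes), 31.1 ± 4.77 for ID3 and 22.2 ± 0.732 for SMAD5. SMAD1 followed at 4.96 ± 0.200 CPM per kb, SMAD9 at 1.18 ± 0.163, BMP2 at 0.823 ± 0.216 and ID2 at 0.350 ± 0.0983. The levels of SMAD9 and BMP2 differed by less than the sum of their SDs. BMP7 (0.0104 ± 0.0208 CPM per kb) and ID4 (0.00918 ± 0.0123) could not be told apart. Using the longest transcript as length raised ID3 to 49.0 CPM per kb and SMAD1 to 10.7, without changing this order. In mut solvent libraries ID3 (19.1 ± 0.704 CPM per kb of all exons) and SMAD5 (19.6 ± 1.44) were within their spread, and the longest transcript put ID3 at 30.1 and SMAD5 at 25.3. Per kb, ID2 and ID4 together were below the SD of ID1.

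To find which of the genes responded to TGFβ1, each time was compared with solvent by limma-voom over all tested genes, and a gene with a Benjamini-Hochberg adjusted p-value (adj. p-value) under 0.05 is called a differentially expressed gene (DEG). In WT cells 3 of the 7 tested genes were DEGs at 6 h, where 17% of all tested genes were DEGs. The count was 5 at 24 h, with 52.1% of all genes, and 6 at 72 h, with 52.2% of all genes. In mut cells ID3 and SMAD1 were the 2 DEGs at each time, beside 7% of all genes at 6 h, 23.8% at 24 h and 24.1% at 72 h. Scaling by library size moved the median log2 difference of all genes in WT cells to -0.176 at 24 h and -0.191 at 72 h, so that these changes are also given relative to that median. Of all DEGs in WT cells at 72 h 2061 were higher and 5705 lower, against 3189 and 3459 with composition (TMM) factors. With these factors the count among the 7 genes was 1 in WT cells at 6 h and 4 in mut cells at 24 h, and the replicate block of series gave 4 in mut cells at 24 h as well. In WT cells the TMM factors also took the calls of SMAD5 at 24 h and of ID1 and SMAD5 at 72 h (adj. p-values 0.123, 0.141 and 0.63).

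**Figure D1:**
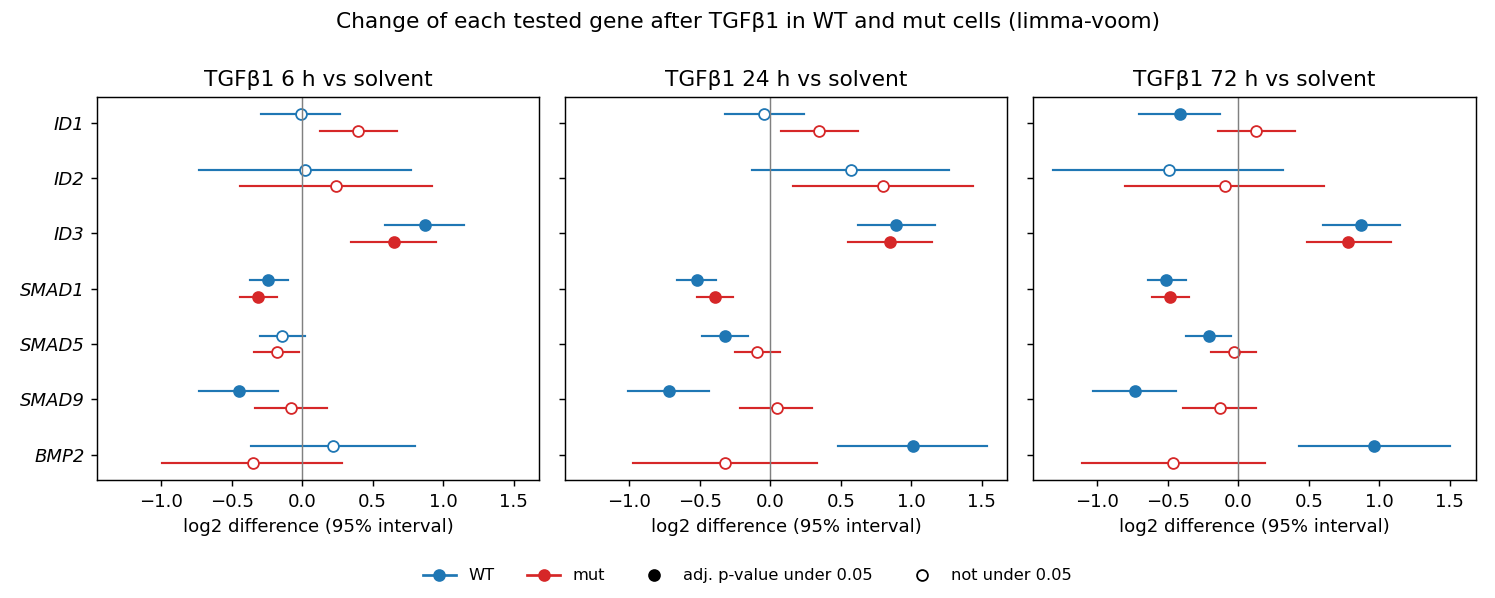
Log2 difference of the 7 tested genes between TGFβ1 and solvent at 6, 24 and 72 h (horizontal axis, limma-voom estimate with 95% interval), with WT in blue, mut in red and filled points for an adj. p-value under 0.05. ID3 rose and SMAD1 fell in both genotypes at each time, while filled points for SMAD9 and BMP2 were in WT cells. With TMM factors SMAD1 and SMAD9 in WT cells at 6 h no longer passed the test. The same held in WT cells for SMAD5 at 24 h and for ID1 and SMAD5 at 72 h.

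ID3 rose in both genotypes and was lower in mut than in WT cells with solvent and with TGFβ1. In WT solvent libraries its abundance was 53.8, 48.3, 47.4 and 36.7 CPM in 27-1, 2-1, 27-2 and 2-2, an order of series kept for the WT values that follow. At 6 h the values were 102, 83.2, 80.8 and 75.3 CPM, at 24 h 96.5, 94.4, 73.3 and 81.7 CPM, and at 72 h 93.7, 95.9, 64.8 and 89.2 CPM. Each treated WT library lay above each WT solvent library, and the level reached at 6 h was held. Against solvent, the log2 differences of the 3 times were 0.87 ± 0.13, 0.89 ± 0.13 and 0.87 ± 0.13 (± SE), with adj. p-values of 4.45e-05, 2.52e-06 and 4.28e-06. Relative to the median of all genes the changes at 24 and 72 h were 1.07 and 1.06.

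In mut solvent libraries ID3 was at 27.8, 28.9, 27.7 and 29.9 CPM in 1-1, 65-1, 1-2 and 65-2, the order used for all mut values. TGFβ1 brought it to 48.2, 49.2, 33.6 and 49.7 CPM at 6 h, 55.9, 46.3, 55.9 and 49.2 CPM at 24 h and 49.6, 42.7, 58.7 and 46.6 CPM at 72 h. The treated mut libraries thus came to about the level of WT cells in solvent, and the 6 h library of series 1-2 was lower than the other 3. The log2 differences in this order of times were 0.65 ± 0.15, 0.85 ± 0.15 and 0.78 ± 0.15, with adj. p-values of 0.00843, 1.18e-04 and 2.06e-04. Leaving out mut 6 h 65-1 gave 0.60 at 6 h with an adj. p-value of 0.0501.

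**Figure D2:**
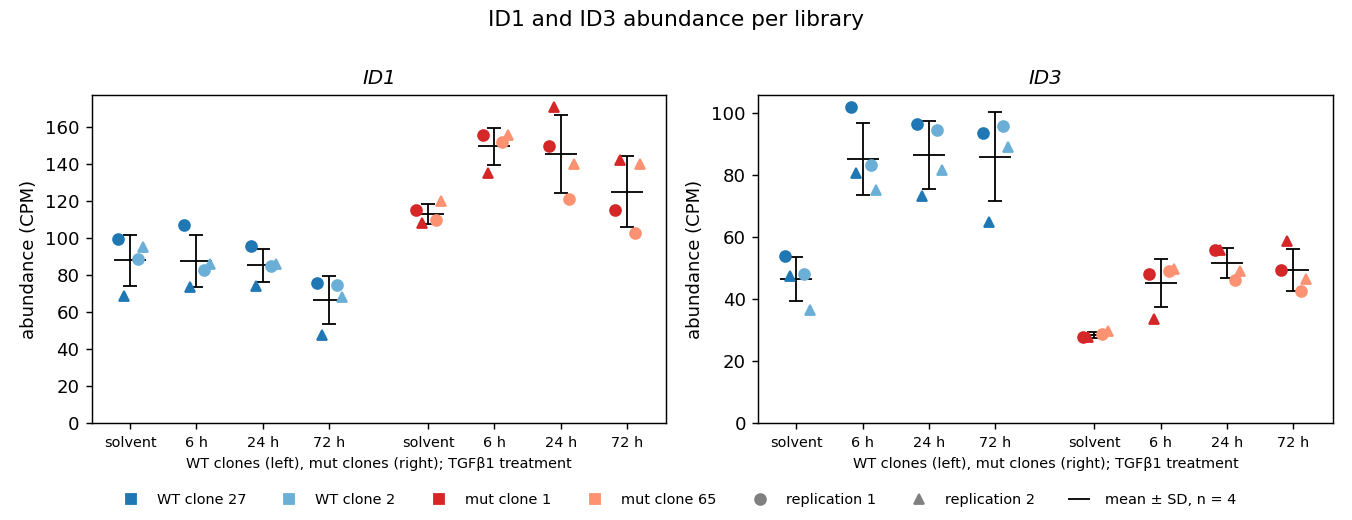
Abundance of ID1 (left panel) and ID3 (right panel) in CPM (vertical axes from 0) in each library of the 8 groups, with clone by colour, replication by symbol and the mean ± SD as black bars. ID1 was higher in mut than in WT libraries and ID3 lower, and ID3 rose from 46.5 to 85.2 CPM in WT and from 28.6 to 45.2 CPM in mut cells at 6 h (means).

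The genotypes were compared at each treatment state. In solvent 2 of the 7 genes were DEGs between mut and WT cells, beside 12.7% of all genes, and at 6, 24 and 72 h there were 5 each, beside 21.4%, 36.9% and 39.2% of all genes. ID3 was lower in mut cells in each state, with log2 differences of -0.69 ± 0.15 in solvent and -0.92 ± 0.13, -0.73 ± 0.13 and -0.78 ± 0.13 at the times of TGFβ1 in order (adj. p-values 0.00187, 1.00e-05, 9.11e-05 and 3.06e-05). No mut library reached a WT library of the same state, and the difference kept its call under each alternative tried, including the removal of series 27-2 and 1-2. The change of ID3 with TGFβ1 itself could not be told apart between the genotypes. The mut change minus the WT change (the interaction) was -0.22 at 6 h with a 95% interval of -0.63 to 0.19, -0.04 at 24 h (-0.45 to 0.37) and -0.09 at 72 h (-0.50 to 0.32).

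ID1 had the highest level of the family in solvent (per kb) and showed the opposite genotype difference and no rise in WT cells. WT libraries held 99.4, 88.6, 68.8 and 95.5 CPM without TGFβ1, 107, 83.1, 73.8 and 86.2 CPM at 6 h, 95.9, 84.9, 74.3 and 86.3 CPM at 24 h and 76.0, 74.7, 48.0 and 68.4 CPM at 72 h. Series 27-2 was the lowest WT library in each group. ID1 differed from solvent by -0.01 ± 0.14 at 6 h and -0.04 ± 0.14 at 24 h (log2; adj. p-values 0.968 and 0.837) and fell at 72 h by 0.41 ± 0.14 on the log2 scale (adj. p-value 0.0134). The fall at 72 h rested on the scaling: it was -0.22 relative to the median of all genes and -0.25 with TMM factors (adj. p-value 0.141). It was also -0.35 without WT solvent 27-1 and -0.26 without WT 72 h 27-2 (adj. p-values 0.0534 and 0.103).

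In mut cells ID1 was at 115, 110, 108 and 120 CPM without TGFβ1, 156, 152, 135 and 156 CPM at 6 h, 150, 121, 171 and 140 CPM at 24 h and 115, 103, 142 and 140 CPM at 72 h. All treated libraries at 6 and 24 h lay above the mut solvent libraries, whereas at 72 h the groups overlapped. Against mut solvent the log2 differences were 0.40 ± 0.13, 0.35 ± 0.13 and 0.13 ± 0.13 for 6, 24 and 72 h, with adj. p-values of 0.0621, 0.0524 and 0.514, so that none passed the test. With a replicate block for series, which takes the libraries of a series as paired, the values at 6 and 24 h were the same. The adj. p-values were then 0.00227 and 0.00192. This pairing was assumed from the clone and replication number in the labels. The TMM factors moved the same changes to 0.45 and 0.44, with adj. p-values of 0.0447 and 0.0212.

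ID1 was higher in mut than in WT cells after TGFβ1. The log2 difference was 0.37 ± 0.13 in solvent, where it missed the threshold (adj. p-value 0.0652), and 0.79 ± 0.13, 0.76 ± 0.13 and 0.92 ± 0.14 at 6, 24 and 72 h of TGFβ1, with adj. p-values of 7.58e-05, 6.22e-05 and 5.26e-06. The lowest mut library was above the highest WT library in each of the 4 states. Leaving out WT 72 h 27-2 gave 0.37 in solvent with an adj. p-value of 0.0355. The interactions of ID1 were 0.41 ± 0.19, 0.39 ± 0.19 and 0.54 ± 0.19 at the 3 times (adj. p-values 0.948, 0.211 and 0.0591). With the replicate block the interaction passed at 24 h and 72 h, at 0.39 and 0.54 with adj. p-values of 0.0239 and 0.00226.

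The ratio of ID1 to ID3 counts within a library does not depend on the scaling between libraries, and it was examined after the opposite signs had been seen. In WT cells the ratio was 1.85, 1.83, 1.45 and 2.60 in solvent, 1.05, 0.999, 0.913 and 1.15 at 6 h, 0.994, 0.900, 1.01 and 1.06 at 24 h and 0.811, 0.779, 0.741 and 0.767 at 72 h. In mut cells it was 4.14, 3.82, 3.90 and 3.99 in solvent, 3.24, 3.08, 4.01 and 3.13 at 6 h, 2.69, 2.61, 3.06 and 2.84 at 24 h and 2.31, 2.41, 2.42 and 3.01 at 72 h. WT and mut libraries did not overlap in any state, and in WT cells at 72 h ID3 counts exceeded ID1 counts in all 4 libraries. By means on the log2 scale, the ratio in mut cells was 2.09 times that in WT cells in solvent. After 6, 24 and 72 h it was 3.27, 2.83 and 3.26 times that in WT cells. Because the ratio was chosen for the opposite signs of its genes, this separation is a description, and no p-value is given for it.

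The mean ratio was lower after TGFβ1 than in solvent in both genotypes. Against solvent, with means taken on the log2 scale, it was 0.541, 0.523 and 0.409 times in WT cells over the 3 times. In mut cells it was 0.844, 0.706 and 0.637 times. Treated and solvent libraries were separate in 5 of these 6 comparisons, while in mut cells at 6 h the library of series 1-2 overlapped the solvent libraries. Each of the 10 differences moved by less than the SD of its groups when any library or series 27-2 or 1-2 was left out.

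ID2 was detected in each library at a level close to the limit of the test. Its counts were 27, 31, 43 and 30 in WT solvent libraries and 60, 83, 46 and 30 at 24 h, and 64, 38, 26 and 38 in mut solvent libraries and 84, 70, 57 and 48 at 24 h. Both genotypes had their highest mean at 24 h, 1.19 ± 0.540 CPM in WT and 1.49 ± 0.332 CPM in mut cells, and the libraries overlapped those of solvent. The log2 difference at 24 h was 0.57 ± 0.34 in WT and 0.80 ± 0.31 in mut cells, with adj. p-values of 0.167 and 0.0621. At 72 h the means were 0.544 ± 0.155 and 0.857 ± 0.315 CPM. With the replicate block ID2 passed the test at 24 h in WT (0.65, adj. p-value 0.0413) and mut cells (0.75, 0.0186), and also from 24 to 72 h, at -1.09 and -0.81 (adj. p-values 0.0107 and 0.0363).

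ID4 was at 0 in 24 of the 32 libraries, with 22 counts in all and no more than 4 in a library. Every group mean was below the floor of 3 counts, so that no difference was detectable at this depth. Most counts of 1 to 4 in the table, 85%, were even numbers, so that counts this low may not be independent reads.

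The time steps within a genotype showed when the changes were made. From 6 to 24 h in WT cells 2 of the 7 genes were DEGs, beside 28.2% of all genes; SMAD1 fell further, by 0.28 ± 0.07 on the log2 scale (adj. p-value 0.00259), and BMP2 rose by 0.79 ± 0.25 (adj. p-value 0.0159). BMP2 lost this call without WT 6 h 27-1, WT 6 h 27-2 or WT 24 h 27-1, at 0.69, 0.68 and 0.70 (adj. p-values 0.0595, 0.0562 and 0.0541). From 24 to 72 h in WT cells limma-voom called 0 of the 7, beside 7.83% of all genes, while 2 (ID1 and ID2) had an unadjusted p-value under 0.05 and edgeR and DESeq2 called 1 each, ID2. In mut cells limma-voom, edgeR and DESeq2 called 0 of the 7 from 6 to 24 h and from 24 to 72 h, beside 3.12% and 1.31% of all genes by limma-voom. Unadjusted p-values under 0.05 numbered 0 and 1 (ID2) in these mut steps. With the replicate block ID1 fell from 24 to 72 h in WT cells, by 0.37 on the log2 scale with an adj. p-value of 0.0041.

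SMAD1 fell after TGFβ1 in both genotypes and was higher in mut cells throughout. It was at 33.7, 34.9, 37.1 and 35.1 CPM in WT solvent libraries, 28.6, 29.8, 30.7 and 29.9 CPM at 6 h, 23.9, 26.0, 24.6 and 23.6 CPM at 24 h and 25.8, 23.3, 27.6 and 22.4 CPM at 72 h. In mut cells the solvent libraries held 41.6, 39.8, 42.4 and 46.0 CPM, and the treated libraries 35.2, 31.7, 39.0 and 31.8 CPM at 6 h, 32.1, 34.0, 31.9 and 31.6 CPM at 24 h and 29.6, 31.1, 31.3 and 29.6 CPM at 72 h. Treated libraries lay below the solvent libraries of their genotype in each comparison. The log2 difference was -0.24 ± 0.07, -0.52 ± 0.07 and -0.51 ± 0.07 at 6, 24 and 72 h in WT cells (adj. p-values 0.0119, 2.63e-07 and 5.23e-07) and -0.31 ± 0.06, -0.39 ± 0.06 and -0.48 ± 0.06 in mut cells (0.00335, 6.43e-05 and 2.19e-06). Relative to the median of all genes the WT changes at 24 and 72 h were -0.34 and -0.32. The WT change at 6 h was -0.16 with TMM factors, with an adj. p-value of 0.0855. It also lost its call with edgeR, DESeq2 and the replications of a clone summed (adj. p-values 0.0743, 0.0896 and 0.11). The mut change at 6 h lost its call with only the groups compared and with summed replications, at -0.31 each (adj. p-values 0.0582 and 0.0875).

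Between the genotypes SMAD1 differed by 0.27 ± 0.06 in solvent and by 0.20 ± 0.07, 0.40 ± 0.07 and 0.30 ± 0.07 after 6, 24 and 72 h of TGFβ1 (log2, mut minus WT), with adj. p-values of 0.00401, 0.0294, 4.37e-05 and 9.39e-04. The lowest mut library was above the highest WT library in each state. With the replications of a clone summed, the difference in solvent (0.27) had an adj. p-value of 0.0635 and that at 6 h (0.20) one of 0.152. The interaction of SMAD1 was between -0.07 and 0.13 over the 3 times, with 95% intervals reaching from -0.26 to 0.32. The difference at 6 h lost its call without WT 6 h 27-1, 2-1 or 2-2 or mut 6 h 1-1 or 1-2, where it was 0.14 to 0.20 with adj. p-values of 0.0556 to 0.14.

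**Figure D3:**
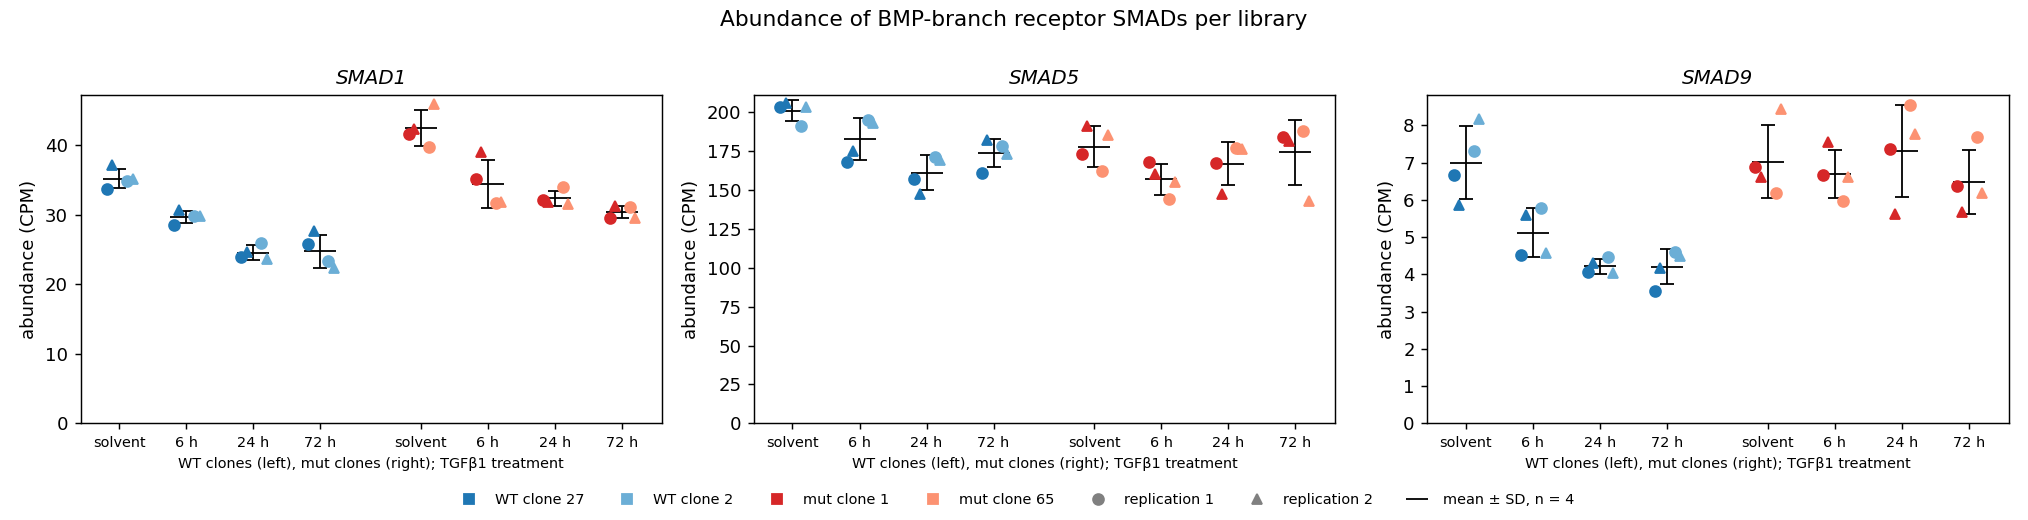
Abundance of SMAD1, SMAD5 and SMAD9 in CPM (vertical axes from 0) in each library of the 8 groups, with clone by colour, replication by symbol and the mean ± SD as black bars. SMAD1 went down in both genotypes and SMAD9 from a mean of 7.0 to 4.21 CPM in WT cells at 72 h, while mut cells held 7.02 and 6.47 CPM of SMAD9 in solvent and at 72 h.

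SMAD9, the least abundant of these SMAD genes, fell in WT cells and differed in its response between the genotypes. WT libraries held 6.67, 7.30, 5.87 and 8.16 CPM without TGFβ1, 4.53, 5.78, 5.59 and 4.58 CPM at 6 h, 4.06, 4.46, 4.30 and 4.04 CPM at 24 h and 3.56, 4.59, 4.17 and 4.50 CPM at 72 h. The mut libraries held 6.88, 6.19, 6.60 and 8.43 CPM without TGFβ1, 6.66, 5.96, 7.55 and 6.61 CPM at 6 h, 7.36, 8.53, 5.62 and 7.77 CPM at 24 h and 6.38, 7.69, 5.66 and 6.17 CPM at 72 h. In solvent the genotypes overlapped, and at each treated time all mut libraries were above all WT libraries. SMAD9 fell in WT cells by 0.45 ± 0.14, 0.72 ± 0.14 and 0.73 ± 0.14 on the log2 scale (adj. p-values 0.0210, 1.02e-04 and 1.06e-04), or -0.55 and -0.54 relative to the median of all genes at 24 and 72 h. The change at 6 h was -0.38 with TMM factors (adj. p-value 0.0517) and -0.43 to -0.38 without WT solvent 2-1 or 2-2 or WT 6 h 27-1 or 2-2 (0.0534 to 0.0854). Mut cells had log2 differences of -0.08 ± 0.13, 0.05 ± 0.13 and -0.13 ± 0.13 in the same order, with adj. p-values of 0.780, 0.832 and 0.490.

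The interaction was then tested for all genes. At 6 h limma-voom, edgeR and DESeq2 called 0 of the 7 genes, beside 0.074% of all genes by limma-voom, and 1 (ID1) had an unadjusted p-value under 0.05. At 24 h and at 72 h 2 genes, SMAD9 and BMP2, were called, beside 9.65% and 12.3% of all genes. Among them SMAD9 had interactions of 0.77 ± 0.19 and 0.60 ± 0.19 at these times, with adj. p-values of 0.0112 and 0.0372, and 0.68 and 0.50 relative to the median of all genes. The value at 24 h kept its call in every fit except that on summed replications (0.77, adj. p-value 0.0837). At 72 h it was 0.52 with TMM factors (adj. p-value 0.0728), and the call was lost without any of 10 libraries, namely WT solvent 2-1 and 2-2, WT 72 h 27-1, 27-2 and 2-2, mut solvent 1-1, 65-1 and 1-2 and mut 72 h 1-1 and 65-1 (0.52 to 0.64, adj. p-values 0.0506 to 0.0879). Between the genotypes SMAD9 differed by 0.01 ± 0.13 in solvent and by 0.39 ± 0.14, 0.78 ± 0.14 and 0.61 ± 0.14 after 6, 24 and 72 h (adj. p-values 0.975, 0.0399, 9.63e-05 and 0.00115). The difference at 6 h lost its call without WT 6 h 27-1 or 2-2 or mut 6 h 1-1, 1-2 or 65-2 (0.33 to 0.39, adj. p-values 0.06 to 0.127).

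SMAD5, the most abundant of these SMAD genes, moved little. WT libraries held 203, 191, 206 and 203 CPM without TGFβ1, 168, 195, 175 and 193 CPM at 6 h, 157, 171, 147 and 169 CPM at 24 h and 161, 178, 182 and 173 CPM at 72 h. The mut libraries ranged from 143 to 191 CPM over all states. The WT libraries at 24 and 72 h lay below those of solvent, with log2 differences of -0.32 ± 0.08 and -0.21 ± 0.08 (adj. p-values 9.16e-04 and 0.0232). Both calls rested on the scaling, since the values were -0.14 and -0.02 relative to the median of all genes and -0.14 and -0.05 with TMM factors (adj. p-values 0.123 and 0.63). The change at 72 h was also -0.20 without WT solvent 27-2 and -0.18 without WT 72 h 27-1 (adj. p-values 0.05 and 0.0803). In mut cells the adj. p-values were 0.159, 0.423 and 0.804. At 6 h SMAD5 was lower in mut cells by -0.22 ± 0.08 (adj. p-value 0.0405), a call lost without WT 6 h 2-1 or 2-2 or mut 6 h 65-1, 1-2 or 65-2 (-0.23 to -0.18, adj. p-values 0.0599 to 0.141).

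BMP2, a secreted ligand that activates the BMP branch, rose in WT cells at 24 and 72 h, while no change in mut cells passed the test. Its abundance was 3.0, 3.24, 1.83 and 3.60 CPM in WT solvent libraries, 2.68, 4.23, 2.67 and 4.01 CPM at 6 h, 6.73, 6.45, 4.39 and 5.63 CPM at 24 h and 8.99, 5.55, 4.23 and 4.59 CPM at 72 h. The mut libraries held 2.86, 1.79, 3.57 and 2.53 CPM without TGFβ1, 1.59, 1.91, 3.42 and 1.73 CPM at 6 h, 2.74, 1.33, 2.24 and 2.20 CPM at 24 h and 2.52, 1.33, 1.73 and 2.10 CPM at 72 h. All WT libraries at 24 and 72 h were above all WT solvent libraries, while the mut groups overlapped. WT cells had log2 differences of 0.22 ± 0.28, 1.01 ± 0.26 and 0.96 ± 0.26 after 6, 24 and 72 h (adj. p-values 0.671, 0.00174 and 0.00290), or 1.19 and 1.15 relative to the median of all genes at the later times. In mut cells it was -0.35 ± 0.31, -0.32 ± 0.32 and -0.46 ± 0.32 (adj. p-values 0.545, 0.497 and 0.315).

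The interactions of BMP2 at 24 and 72 h were -1.33 ± 0.41 and -1.42 ± 0.41, with adj. p-values of 0.0378 and 0.0223 and all 4 mut series below the WT series in their change. With the replications of a clone summed both calls were lost (-1.32 and -1.44, adj. p-values 0.0974 and 0.0621). Without the 4 libraries of series 1-2 the interaction was -1.23 at both times, with adj. p-values of 0.113 and 0.0759. At 24 h the call was lost without any of 11 libraries, namely WT solvent 27-1 and 27-2, WT 24 h 27-1, 2-1 and 2-2, mut solvent 1-1, 1-2 and 65-2 and mut 24 h 65-1, 1-2 and 65-2 (-1.37 to -1.13, adj. p-values 0.0525 to 0.0994). At 72 h it was lost without mut solvent 1-2 or mut 72 h 65-1, at -1.28 each (adj. p-values 0.0557 and 0.0547). Between the genotypes BMP2 differed by -0.13 ± 0.30 in solvent and by -0.71 ± 0.30, -1.46 ± 0.28 and -1.55 ± 0.28 in the treated states in order (adj. p-values 0.826, 0.0943, 2.01e-04 and 8.33e-05). The differences at 24 and 72 h kept their calls under each alternative tried.

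**Figure D4:**
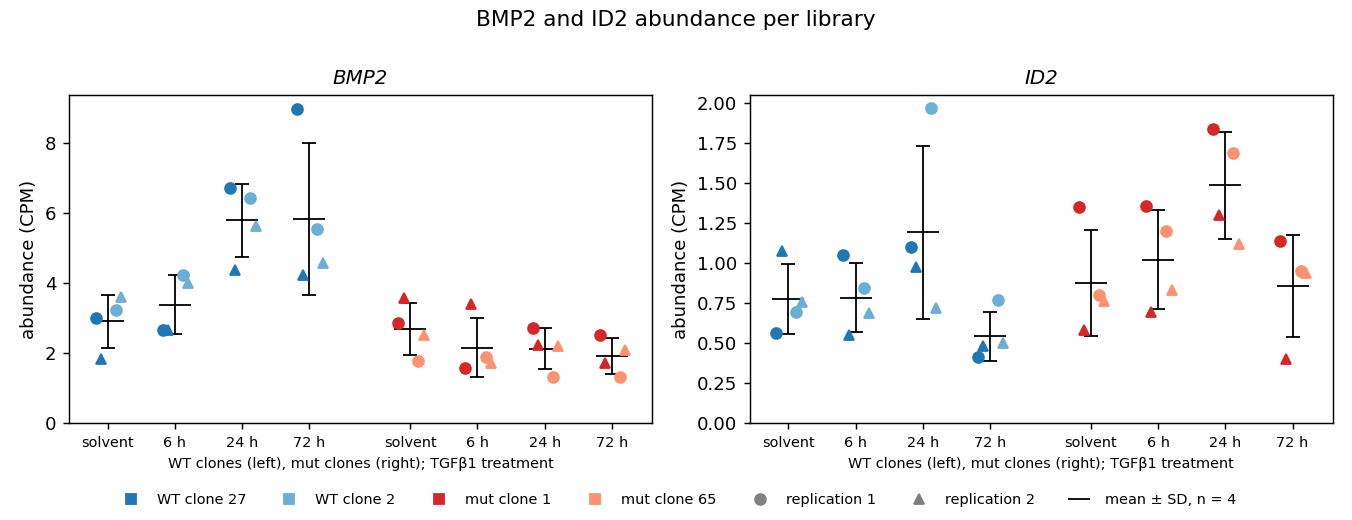
Abundance of BMP2 (left panel) and ID2 (right panel) in CPM (vertical axes from 0) in each library of the 8 groups, with clone by colour, replication by symbol and the mean ± SD as black bars. BMP2 went from a mean of 2.92 to 5.84 CPM in WT cells at 72 h and from 2.69 to 1.92 CPM in mut cells, and ID2 stayed at or below 1.97 CPM.

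BMP7, another ligand of the branch, was near the floor. The 16 WT libraries held 20 counts in all, 10 of them in WT solvent 2-1, and 11 of them were at 0. The 16 mut libraries held 77 counts, with 16, 8, 3 and 6 in solvent, 4, 6, 6 and 6 at 6 h, 4, 6, 8 and 2 at 24 h and 0, 2, 0 and 0 at 72 h. Counts above the floor thus came mostly from mut libraries before 72 h. In a fit without the filter on low counts, which BMP7 does not pass, limma-voom gave adj. p-values of 0.0221 for mut against WT in solvent and of 0.136, 0.0087 and 0.769 after 6, 24 and 72 h. The value for mut cells at 72 h against their solvent was 0.00266. At such counts the fitted fold changes depend on the prior count and are not given, and the p-values share this limit. As for ID4, counts this low may not be independent reads, so that no difference of BMP7 is read from them.

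The genes whose log2 abundance followed an ID gene most closely were searched among 9645 genes over the 32 libraries. For ID3 they were UBAP1 (Pearson r 0.941), WNT9A (0.939) and COL1A1 (0.935), and for ID1 they were PPP1R14C (0.920), ERRFI1 (0.912) and CASZ1 (0.902). ID2 was followed less closely, by CLK4 (0.599), RAP2A (0.595) and BGN (0.595), and the sparse ID4 counts gave LLPH (0.503), DAPP1 (0.473) and TRAF3 (0.464), from which nothing is read. Among the tested genes of the branch ID3 went with SMAD1 at r = -0.889, with SMAD9 at -0.792 and with ID1 at -0.463. These correlations are descriptions over libraries that share groups, clones and library depth.

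The E proteins, binding partners of ID proteins, are of interest beside the ID levels. All 3 were tested. At 24 h 2 rose in WT and 1 in mut cells, beside 52.1% and 23.8% of all genes called. At 72 h 1 rose in WT and 2 in mut cells, beside 52.2% and 24.1% of all genes. TCF12 rose in WT cells at 72 h from 113 ± 3.99 to 136 ± 3.56 CPM (log2 difference 0.27 ± 0.07, adj. p-value 9.57e-04), whereas it was 125 ± 12.1 and 125 ± 9.29 CPM in mut cells, an interaction that missed the threshold (-0.27 ± 0.09, adj. p-value 0.0531). TCF3 and TCF4 were lower in mut than in WT solvent libraries, by -0.22 ± 0.06 and -0.45 ± 0.15 (adj. p-values 0.00855 and 0.0435). TCF4 lost this call without series 1-2 and both lost it with summed replications.

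Ligands and receptors around the branch were taken as lists. Of 21 BMP and GDF ligand genes, a list that also names BMP2 and BMP7, 11 were tested, and in WT cells 4 rose and 2 fell at 72 h, with a median log2 difference of 0.40 against -0.191 over all genes. These are 6 of 11 genes, close to the 52.2% of all genes called there. BMP1, a procollagen protease and not a ligand of the family in spite of its name, rose in WT cells from 87.4 ± 10.2 to 160 ± 20.4 CPM and was higher in mut solvent libraries (137 ± 6.39 CPM). Its interaction was -0.68 ± 0.11 at 72 h (adj. p-value 2.71e-04). GDF11 rose in both genotypes at 72 h, by 0.97 ± 0.19 in WT and 0.90 ± 0.23 in mut cells, and was lower in mut solvent libraries by -0.90 ± 0.24. INHBA, which encodes the activin A subunit, rose in WT cells at 72 h by 1.40 ± 0.43, and GDF15 fell there by 1.38 ± 0.35 on the log2 scale.

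Of 13 receptors and co-receptors 11 were tested, and 2 rose and 3 fell in WT cells at 72 h (median -0.11), 5 of 11 beside 52.2% of all genes. The type II receptor gene BMPR2 rose from 94.9 ± 3.72 to 162 ± 11.8 CPM in WT and from 92.7 ± 6.77 to 130 ± 23.5 CPM in mut cells. ACVR1, a type I receptor, rose in WT cells from 26.7 ± 1.87 to 41.6 ± 1.26 CPM, with an interaction of -0.47 ± 0.12 at 72 h (adj. p-value 0.0124). It was also higher in mut than in WT solvent libraries (0.28 with TMM factors, adj. p-value 0.0457). That call was lost without series 27-2 or 1-2, with only the groups compared and with summed replications. The co-receptor gene TGFBR3 (betaglycan) fell from 33.3 ± 7.36 to 9.70 ± 0.411 CPM in WT and from 41.8 ± 3.33 to 14.4 ± 1.23 CPM in mut cells. NEO1 fell in WT cells by 0.25 ± 0.07 on the log2 scale, a call lost with TMM factors (-0.09, adj. p-value 0.323), and ENG was lower in mut solvent libraries by -0.25 ± 0.08. On the TGFβ side, a list of 4 genes, TGFBR1 went up in WT cells (44.9 ± 3.26 to 83.6 ± 10.4 CPM), while mut cells held 40.9 ± 5.98 and 42.4 ± 5.69 CPM, with an interaction of -0.83 ± 0.16 (adj. p-value 0.00119). TGFBR2 rose by 0.30 ± 0.10 in WT cells, and SMAD2 differed by -0.14 ± 0.05, a sign that TMM factors turned to 0.02.

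Among 19 extracellular antagonists and modulators 10 were tested, of which 5 rose and 1 fell in WT cells and 6 rose in mut cells at 72 h, with medians of 0.40 and 0.86. The 6 of 10 in each genotype stand beside 52.2% of all genes in WT and 24.1% in mut cells. FSTL1, a secreted follistatin-like protein, rose from 60.7 ± 22.2 to 212 ± 14.3 CPM in WT and from 22.5 ± 8.21 to 86.7 ± 10.1 CPM in mut cells. TLL1, a protease gene, was at 3.18 ± 0.622 CPM in WT solvent libraries, rose there to 11.4 ± 1.06 CPM and started from 0.855 ± 0.557 CPM in mut cells, -2.14 ± 0.40 against WT on the log2 scale (adj. p-value 4.10e-04). KCP was higher in mut solvent libraries by 0.85 ± 0.21, and its fall in WT cells at 72 h (-0.68 ± 0.26) lost its call with TMM factors.

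Of 18 intracellular inhibitors and SMAD cofactors 17 were tested, of which 8 rose and 4 fell in WT cells and 6 rose and 4 fell in mut cells at 72 h. All genes were called at 52.2% and 24.1% in these comparisons. PMEPA1, a membrane protein that sequesters receptor SMADs, rose from 84.2 ± 36.7 to 900 ± 109 CPM in WT and from 86.8 ± 33.2 to 695 ± 125 CPM in mut cells. The SMAD corepressor gene SKIL rose by 1.97 ± 0.18 and 1.77 ± 0.17 on the log2 scale. The phosphatase gene CTDSPL fell by 0.48 ± 0.06 and 0.38 ± 0.06, and CTDSP2 and CTDSP1 were higher in mut solvent libraries by 0.58 ± 0.07 and 0.20 ± 0.06. TOB1 fell in WT cells by 0.41 ± 0.14, a call lost with TMM factors (-0.25, adj. p-value 0.132).

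Of 20 transcription factor genes known to respond to BMP, a list that names the 4 ID genes, 16 were tested, and 6 rose and 2 fell in WT cells at 72 h, while 6 rose and 1 fell in mut cells, beside the same 52.2% and 24.1% of all genes. SNAI2, a repressor of epithelial genes, rose from 102 ± 16.6 to 283 ± 38.5 CPM in WT and from 87.4 ± 14.9 to 244 ± 50.7 CPM in mut cells, and DLX2 rose by 1.31 ± 0.19 and 1.78 ± 0.20 on the log2 scale. GATA3, a luminal regulator, fell by 0.43 ± 0.09 and 0.25 ± 0.08. In solvent KLF10 and GATA3 were higher in mut cells, by 0.38 ± 0.10 and 0.26 ± 0.08, and TBX3 was lower, by -0.54 ± 0.15, like ID3. The calls of GATA3 and TBX3 in solvent were lost without series 27-2, as was that of CTDSP1.

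The epithelial marker sum moved with the genotype, from 7095 to 9480 CPM in WT and 10480 to 12591 CPM in mut solvent libraries, as ID1 and SMAD1 did. The sum over markers of other cell types was higher at 24 h than in solvent in WT cells, as ID3 and BMP2 were. It was 16.3 to 28.9 CPM in solvent and 56.9 to 80.6 CPM at 24 h. The sum did not follow both genes at the other times. At 6 h it was already 32.7 to 59.8 CPM, while BMP2 was not called. At 72 h it was at most 57.2 CPM, while mean ID3 and BMP2 stayed near their values at 24 h. In mut cells it was 27.6 to 31.8 CPM in solvent and 26.1 to 29.5 CPM at 24 h, although ID3 rose. Of the 4 tested genes of this sum 2 rose and 2 fell in WT cells from solvent to 24 h. COL1A1, also a gene of the epithelial-mesenchymal transition, was at 8.32 ± 1.99 and 61.4 ± 10.0 CPM. The monocyte marker CD14 was at 14.8 ± 4.11 and 3.36 ± 1.47 CPM. The part of these markers in the results was not tested.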

How the data were processed

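RNA was sequenced from 32 libraries of MCF10A clones with a kit that keeps no strand information. The authors deposited raw counts of reads for each gene and library, made with STAR after trimming with Trimmomatic and aligned to GRCh38; tool versions and the strand setting of the counting are not given in the sources used here. Identifiers were named by GENCODE release 44, which named 17763 of 17788 genes. No column of per-sample values was left unused.

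Groups came from the labels. Replicate libraries differed beyond sampling noise (chi-square per degree of freedom at least 11.5), so each was 1 sample. Genes were filtered by filterByExpr (edgeR 4.0.16, with 10 as the minimum count and 15 as the minimum total), scaled by library size, as in the study, and fitted with voom and limma 3.58.1 in R 4.3.3 (~0 + condition, all 32 libraries). P-values are two-sided and Benjamini-Hochberg adjusted over 14865 genes, with a threshold of 0.05, for 17 comparisons. The study calls its replicates biologically independent, but libraries of a clone share its origin, so that p-values measure the spread between these libraries. Intervals, errors and floors cover counting and replicate spread, and reads carry no molecular identifiers.

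Series pair libraries by the clone and the replication number in the labels. Within a series 46 of 48 pairs had correlations of the deviations from the group means above 0.1 (mean 0.431, lowest -0.0601). Because a group mean spans both clones, a lasting clone difference also gives such correlations. They therefore do not show that replication numbers pair the libraries. Alternatives were TMM factors, edgeR quasi-likelihood, DESeq2 1.42.0, other low-count filters (none, or a mean count of at least 50, 12417 genes), the groups of a comparison alone, the series as a replicate block, summed replications, another gene length, and leaving out each library or the series 27-2 or 1-2. Leaving out both series, the ID1 to ID3 ratio and the motifs of the GC box, CCAAT box and TATA element were chosen after seeing the data. Named list genes were, for each list, the 2 DEGs with the strongest rise and the 2 with the strongest fall at a mean of at least 5 CPM, in WT cells at 72 h and in mut against WT solvent libraries; other values given for them were chosen after they were seen. The 9 genes and the lists were chosen with earlier results of these data known. Values and ratios were computed in Python 3.11.15.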

Additional observations from a re-analysis of the deposited data

Results flagged for a closer look

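In 64 sets of 4 libraries (7 genes and the ID1 to ID3 ratio in 8 groups), 2 held a library far from the other 3 by Dixon's criterion (gap over range above 0.829), where chance gives about 1 in 20. ID3 in mut cells at 6 h was at 33.6 CPM in series 1-2 and at 48.2 to 49.7 CPM in the others. SMAD5 in mut cells at 72 h was at 143 CPM in series 65-2 and at 181 to 188 CPM in the others.

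The TGFβ1 response differed between mut and WT cells, by the limma-voom interaction, for SMAD9 at 24 h (0.77) and 72 h (0.60) and for BMP2 at 24 h (-1.33) and 72 h (-1.42). The adj. p-values were 0.0112, 0.0372, 0.0378 and 0.0223. For each of these results, mut and WT series had separate ranges of change.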

How the results depend on the processing

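No log2 difference of the 7 genes changed its direction among the calls made in at least 1 fit. Under the alternatives 2230 values kept their side of the threshold, 96 lost a call and 57 gained one, and all 110 values of the ID1 to ID3 ratio moved by less than the SD. The cause of a lost or gained call was not tested.

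The number of the 7 genes called in WT cells at 6 h went from 3 to 1 with TMM factors, edgeR and summed replications. In mut cells it went at 6 h from 2 to 1 with summed replications, and at 24 h from 2 to 4 with TMM factors or the replicate block for series. From 24 to 72 h it went in WT cells from 0 to 1 with edgeR and DESeq2 and to 2 with the replicate block, and in mut cells from 0 to 1 with the replicate block. For mut against WT at 6 h it went from 5 to 2 with only the groups compared, summed replications or no series 1-2, and to 3 without series 27-2 and 1-2. For the interaction at 24 h it went from 2 to 0 with summed replications and to 1 without series 1-2 or without both series. For that at 72 h it went from 2 to 1 with TMM factors, edgeR, DESeq2, only the groups compared, summed replications and without series 1-2 or both series; the 1 gene with summed replications was ID1 (0.57, adj. p-value 0.0375), and SMAD9 and BMP2 both lost their calls. The replicate block changed no other call of ID3, SMAD1, SMAD5, SMAD9 or BMP2. Smaller changes of the counts are not listed here. In WT cells TMM factors, edgeR and DESeq2 each lost the calls of SMAD5 at 24 h and of ID1 and SMAD5 at 72 h.

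Leaving out 1 library gave 2 to 3 genes in WT cells at 6 h, 5 at 24 h and 5 to 6 at 72 h, and 1 to 3, 2 to 3 and 2 in mut cells. The time steps gave 1 to 3 and 0 to 1 in WT cells and 0 in mut cells. Mut against WT gave 2 to 3 in solvent and 2 to 5, 5 and 5 to 6 at 6, 24 and 72 h, and the interactions gave 0, 1 to 2 and 0 to 3.

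Over all genes the interaction at 24 h called 1434 genes, against 860 with TMM factors, 2782 with the replicate block, 312 with summed replications and 725 without series 1-2. At 72 h it called 1831 genes, against 3488 with the block and 650 with summed replications. Using the longest transcript moved 26 of 72 levels per kb by more than 1 SD. ID4 and BMP7 were too sparse for a fold change, and ID2, at 19 to 84 counts per library, had wide intervals.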
